A study of Mus musculus with 12 samples.

Results

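Small leucine-rich proteoglycans are secreted matrix proteins built around a short array of leucine-rich repeats. Dcn, Bgn, Aspn, Fmod, Lum, Prelp, Kera, Omd and Ogn, 9 genes of this family, were taken by symbol from the deposited tables, and the values of all transcripts of a symbol were added. All 9 were found in both tables, out of 18335 gene symbols that both tables held. The proteins sit on the surface of collagen fibrils, set fibril spacing and diameter, and hold growth factors such as TGF-beta in the matrix. In bone, biglycan and decorin are the most studied members, and mice without Bgn are known for low bone mass. Class I (Dcn, Bgn, Aspn) is named for chondroitin or dermatan sulfate chains, class II (Fmod, Lum, Prelp, Kera, Omd) for keratan sulfate and sulfated tyrosines, and class III here holds Ogn.

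Femurs of 5-week-old male mice of mixed background were divided into metaphysis, the flared end with trabecular bone, and diaphysis, the cortical tube with its marrow. In each region, Dlx3Oc-cKO mice (cKO from here on), which lack the homeobox gene Dlx3 conditionally, were set against wild-type mice (WT). The 4 groups were metaphysis cKO, metaphysis WT, diaphysis cKO and diaphysis WT, with 3 libraries each and 12 in all. The labels give neither the Cre driver nor the floxed allele. Library titles begin with 12 different numbers, but the labels do not say whether the libraries of a group were separate mice. Each p-value therefore sets a difference against the spread between libraries, which may be partly technical. Values are RPKM, reads scaled to transcript length and to the mapped reads of the library. They come from whole pieces of bone, in which fewer cells of a type and less RNA per cell cannot be told apart. Titles of the metaphysis libraries also carry the letters GP, and that piece held cartilage RNA. Col2a1 (type II collagen, a cartilage gene) averaged 1130 ± 403 RPKM in metaphysis cKO and 495 ± 159 RPKM in metaphysis WT. In the diaphysis it averaged 107 ± 38.0 RPKM in cKO and 105 ± 65.6 RPKM in WT (SD, n = 3 each), set beside these without a test.

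Dlx3 checked the labels. It fell in the metaphysis to 1.98, 2.80 and 3.24 RPKM in cKO, against 8.37, 8.90 and 10.1 RPKM in WT (log2 fold change -1.75, limma, adjusted p = 0.00907). In the diaphysis it measured 0.763, 1.55 and 1.17 RPKM in cKO and 3.22, 7.64 and 13.1 RPKM in WT, without overlap and without passing the adjustment (log2 fold change -2.52, limma, adjusted p = 1.00). Depth, read from the spacing of the lowest values, was 24.5 to 34.3 M reads (M, mega) in the metaphysis and 18.2 to 53.1 M in the diaphysis. Globin took 13.5% to 17.2% of summed RPKM in metaphysis cKO libraries and 19.0% to 22.1% in metaphysis WT libraries. In the diaphysis its share was 26.5%, 15.3% and 18.7% in cKO and 32.6%, 17.9% and 15.1% in WT. WT replicate 1 of the diaphysis, which had the largest globin share, stood apart, with Col1a1 (type I collagen) at 1801 RPKM against 8279 and 11230 RPKM in the other WT libraries of that region. It had the lowest value of the 6 diaphysis libraries for all 9 proteoglycan genes.

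The genes lie in tight groups on the genome (NCBIM37 build, GENCODE vM1 annotation). On chromosome 10, Dcn (96942245 to 96980777), Lum (97028135 to 97035337) and Kera (97069817 to 97076322) follow each other on the plus strand with gaps of 47.4 and 34.5 kb, and Epyc comes 30.4 kb further on. On chromosome 13, Aspn (49639812 to 49662926), Omd (49678135 to 49687978) and Ogn (49703440 to 49719869) stand 15.2 and 15.5 kb apart, with Ecm2 11.7 kb before Aspn. Prelp and Fmod are separated by 116 kb on chromosome 1, with Optc 2.3 kb from Prelp. Of the 9 genes only Bgn is on chromosome X (70728941 to 70741272, plus strand). Nyx, another gene of the family, lies far from it on that chromosome (13043236 to 13066439).

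The 250 bases before the transcript start are shown for Bgn and Fmod, which were higher relative to Dcn and Lum in cKO bone of both regions, and for Aspn, the member with the homeodomain motif. The windows are RefSeq sequence, placed on NCBIM37 by an exact match at a single position each, and the table held 7 of the 9 genes, all but Dcn and Lum. Capitals mark, on either strand, the homeodomain core TAATTG, the TATA element TATAAA or the GC box GGGCGG, which can overlap.
Bgn, chrX:70728690-70728939, plus strand: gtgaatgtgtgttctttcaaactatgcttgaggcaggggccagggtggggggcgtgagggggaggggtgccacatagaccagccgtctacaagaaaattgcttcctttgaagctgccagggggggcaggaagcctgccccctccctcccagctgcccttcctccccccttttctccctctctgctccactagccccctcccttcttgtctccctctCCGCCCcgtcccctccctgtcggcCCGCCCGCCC
Fmod, chr1:135933581-135933830, plus strand: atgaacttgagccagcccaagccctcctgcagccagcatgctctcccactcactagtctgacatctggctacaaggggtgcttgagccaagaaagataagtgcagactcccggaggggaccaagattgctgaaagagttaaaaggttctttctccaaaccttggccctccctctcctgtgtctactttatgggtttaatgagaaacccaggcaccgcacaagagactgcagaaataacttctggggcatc
Aspn, chr13:49639562-49639811, plus strand: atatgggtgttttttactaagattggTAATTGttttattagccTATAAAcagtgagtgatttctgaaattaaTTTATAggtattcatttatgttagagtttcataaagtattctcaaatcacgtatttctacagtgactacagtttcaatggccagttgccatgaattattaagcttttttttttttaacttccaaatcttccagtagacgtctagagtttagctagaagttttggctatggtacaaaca
The Bgn window had GC boxes starting 34, 10 and 6 bases before the start, and GGGCGG was in 32.7% of 32851 promoter windows of this length. Aspn held TAATTG 224 bases before its start, a word found in 7.17% of windows, and TATAAA 207 and 178 bases before it, found in 12.4%. None of these letters was in the Fmod window. The RUNX word TGTGGT, present in 14.1% of windows, was in 1 of the 7 members (Ogn). A match is a description of the sequence and not a measured site.

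The family spanned a wide range of levels, and its order was similar in all groups. Bgn was the highest, followed by Dcn and Lum, and Kera was the lowest. Bgn averaged 594 ± 155 RPKM in metaphysis cKO and 381 ± 34.6 RPKM in metaphysis WT, and 343 ± 132 RPKM in diaphysis cKO and 417 ± 268 RPKM in diaphysis WT (SD, n = 3 each). Kera averaged 3.60 ± 1.54 RPKM in metaphysis cKO and 8.54 ± 5.01 RPKM in metaphysis WT, and 4.75 ± 1.81 RPKM in diaphysis cKO and 6.63 ± 3.97 RPKM in diaphysis WT (SD, n = 3 each). In metaphysis WT each of the first 5 ranks (Bgn, Dcn, Lum, Fmod, Aspn) was clear of the next by its range, while Omd, Prelp, Ogn and Kera overlapped. In metaphysis cKO, Bgn was clear of Dcn, but Dcn, Lum and Fmod overlapped in turn. In diaphysis WT every neighbour in the order overlapped the next. In diaphysis cKO, Dcn overlapped Lum, Aspn overlapped Fmod, Omd overlapped Ogn and Prelp overlapped Kera, and the other steps were clear.

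**Figure D1:**
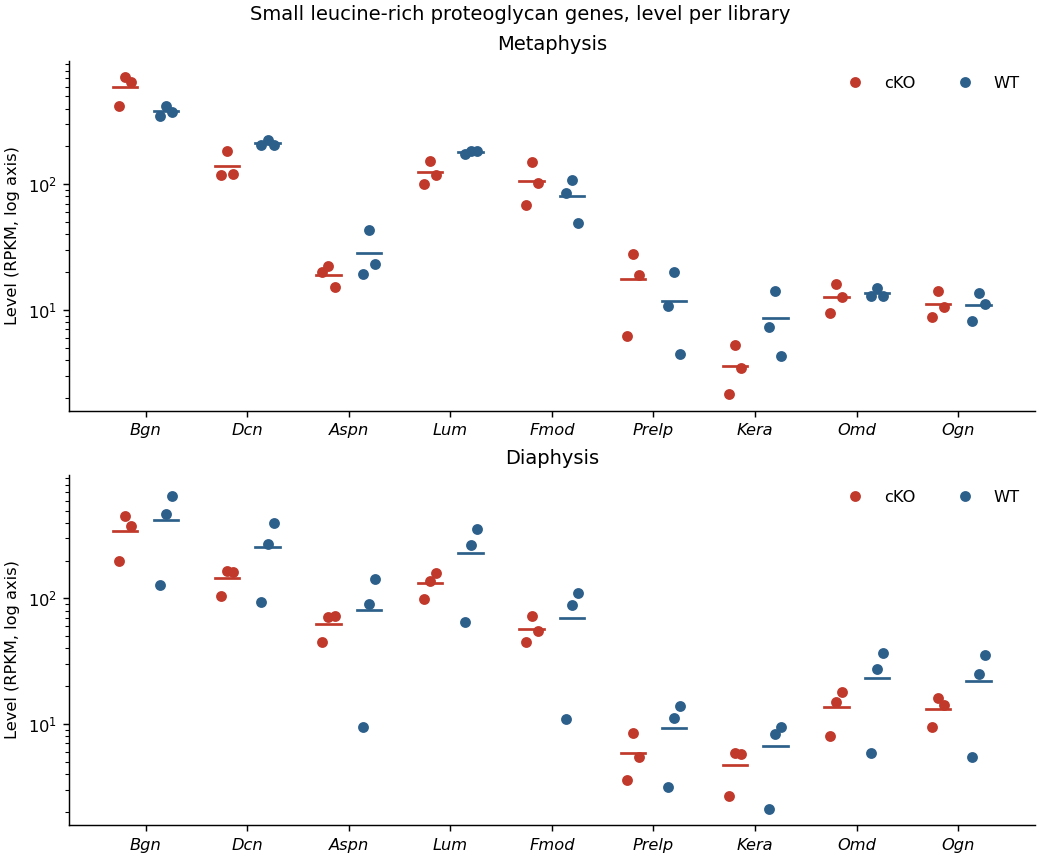
RPKM of the 9 genes on a log axis in each library, metaphysis above and diaphysis below, with cKO (red) left of WT (blue). Points are libraries and lines are means of 3. Bgn lies highest in every group, and the low blue point of every gene in the diaphysis is WT replicate 1.

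Aspn and Fmod differed in the order of their group means between regions. Aspn averaged 62.4 ± 15.4 RPKM in diaphysis cKO and 80.9 ± 67.0 RPKM in diaphysis WT, against 19.1 ± 3.61 RPKM in metaphysis cKO and 28.4 ± 12.6 RPKM in metaphysis WT (SD, n = 3 each). The diaphysis to metaphysis ratio of its means was 3.26 in cKO, where the libraries did not overlap, and 2.84 in WT, where they did. The tables were normalized separately, so these levels are set side by side without a test. By group mean Fmod was above Aspn in the metaphysis and below it in the diaphysis, in both genotypes. Single diaphysis libraries did not all follow, since Aspn was below Fmod in 3 of 6, namely cKO replicates 1 and 2 and WT replicate 1.

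Whether the family differed with the Dlx3 genotype was asked first in the metaphysis. Dcn and Lum were lower in all 3 cKO libraries than in any WT library, and Bgn was higher in all 3. No member passed the adjusted threshold of 0.05: 0 of 9, where 11.4% of 12641 genes did (1441 genes, limma on log2(RPKM + 0.1), Benjamini-Hochberg). At an unadjusted p under 0.05 there were 4 of 9 (Dcn, Bgn, Lum and Kera), where 30.6% of all genes had one. Groups that did not overlap were seen for 3 of 9 members, against 37.1% of all genes, a share near that background. Of these 1 was higher in cKO, where 18.7% of genes were, and 2 were lower, where 18.4% of genes were. The median log2 fold change was -0.13 over the 9 genes and -0.04 over all genes tested.

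Biglycan, encoded by Bgn, binds BMP and TGF-beta ligands and is made by osteoblasts. It measured 419, 715 and 648 RPKM in metaphysis cKO, against 349, 418 and 376 RPKM in metaphysis WT. The lowest cKO library thus stood just above the highest WT library. The log2 fold change was 0.61 ± 0.20 (SE), with a 95% interval of 0.14 to 1.08 (limma, adjusted p = 0.0911). Without cKO replicate 1, the lowest of its group, it was 0.84 and passed (adjusted p = 0.0249), and it also passed after quantile normalization (adjusted p = 0.0430). Of 6 fits with a library left out, Bgn passed in 1. Its adjusted p was 0.174 without the filter on low values and 0.542 with all 12 libraries in 1 fit (limma).

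Decorin, encoded by Dcn, decorates collagen fibrils and binds TGF-beta. Dcn measured 118, 183 and 121 RPKM in metaphysis cKO, against 205, 225 and 205 RPKM in metaphysis WT. The WT libraries lay close together, and cKO replicate 2 came nearest to them. The log2 fold change was -0.62 ± 0.17 (SE), with an interval of -1.02 to -0.22 (limma, adjusted p = 0.0593). It passed without cKO replicate 2 (-0.82, adjusted p = 0.0185) and when the highest transcript stood for the gene (adjusted p = 0.0379). Of 6 fits with a library left out, Dcn passed in 1. Its adjusted p was 0.120 without the filter on low values and 0.457 with all 12 libraries in 1 fit (limma). Of the transcripts listed for Dcn, NM_001190451 made up 81.9% of the symbol's RPKM in metaphysis cKO and 81.8% in metaphysis WT.

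Lumican, encoded by Lum, is a keratan sulfate member known for keeping the cornea clear and also present in bone matrix. Lum measured 101, 152 and 119 RPKM in metaphysis cKO, against 175, 184 and 184 RPKM in metaphysis WT. Again cKO replicate 2 was the nearest to WT, and the groups did not overlap. The log2 fold change was -0.56 ± 0.15 (SE), with an interval of -0.91 to -0.22 (limma, adjusted p = 0.0510). This value lay so near the threshold that it passed with a pseudocount of 1 (adjusted p = 0.0496) and after rescaling without globin (adjusted p = 0.0446). Of 6 fits with a library left out, Lum passed in 1, that without cKO replicate 2 (adjusted p = 0.0237). Its adjusted p was 0.101 without the filter on low values and 0.553 with all 12 libraries in 1 fit (limma).

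Among the remaining members the groups overlapped. Keratocan, encoded by Kera and best known from the cornea, measured 2.13, 5.21 and 3.46 RPKM in metaphysis cKO and 7.27, 14.1 and 4.29 RPKM in metaphysis WT (log2 fold change -1.15 ± 0.46 SE, limma, adjusted p = 0.144). Asporin, encoded by Aspn and without a glycosaminoglycan chain, measured 20.0, 22.2 and 15.1 RPKM in cKO and 19.3, 42.9 and 23.1 RPKM in WT (-0.50 ± 0.29 SE, adjusted p = 0.292). Both had their highest value in WT replicate 2. Fibromodulin, encoded by Fmod and abundant in tendon, measured 68.8, 150 and 102 RPKM in cKO and 84.7, 109 and 49.4 RPKM in WT (0.40 ± 0.35 SE, adjusted p = 0.478). Prelp, whose product binds the basement membrane proteoglycan perlecan, measured 6.15, 27.6 and 18.9 RPKM in cKO and 10.8, 20.0 and 4.44 RPKM in WT (0.57 ± 0.67 SE, adjusted p = 0.598). It varied more between libraries of one genotype than between genotypes. Osteomodulin (Omd), a keratan sulfate member found mainly in mineralized tissue, and osteoglycin (Ogn) had the smallest differences, -0.13 ± 0.19 and 0.03 ± 0.23 (SE). Their 95% intervals ran from -0.57 to 0.31 and from -0.51 to 0.56, and differences within these limits in either direction are not excluded. The smaller Aspn transcript share, that of NM_001172481, was 26.6% to 36.7% in metaphysis cKO and 16.6% to 19.5% in metaphysis WT. In the diaphysis it overlapped, at 13.9% to 19.9% in cKO and 12.8% to 24.7% in WT. No matching share over the transcripts of all genes was computed. By level, 37.1% of all genes had groups that did not overlap in the metaphysis. How reads shared by both transcripts were divided is not given in the sources used here.

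**Figure D2:**
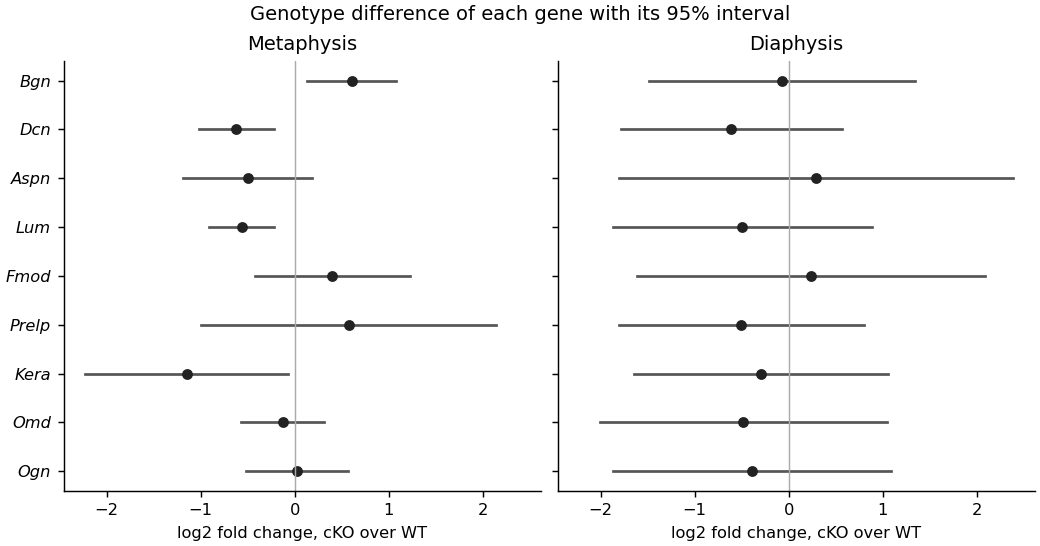
log2 fold change of cKO over WT for the 9 genes (points) with its 95% interval from limma (lines), metaphysis left and diaphysis right. In the metaphysis the intervals of Bgn, Dcn, Lum and Kera exclude 0, and in the diaphysis every interval includes it.

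The diaphysis gave wide intervals. Of 9 members 0 passed, as did 0 of 12540 genes (0%), with 86 genes at an unadjusted p under 0.05 (0.686%) and 0 members among them. Members with groups that did not overlap numbered 0 of 9, against 3.03% of genes (2.24% higher and 0.789% lower in cKO). Dcn measured 105, 166 and 162 RPKM in diaphysis cKO, against 92.9, 269 and 401 RPKM in diaphysis WT (log2 fold change -0.61 ± 0.50 SE, limma, adjusted p = 1.00). Lum measured 98.7, 138 and 160 RPKM in cKO, against 64.4, 265 and 358 RPKM in WT (-0.49 ± 0.59 SE). For both genes the cKO libraries fell between WT replicate 1 and the higher pair of WT libraries. Bgn measured 198, 456 and 374 RPKM in cKO, against 127, 467 and 657 RPKM in WT (-0.07 ± 0.61 SE). The log2 fold changes of the other 6 members ran from -0.50 (Prelp) to 0.29 (Aspn), and the median of the 9 was -0.39, against 0.002 over all genes. Without WT replicate 1 the values were -1.22 for Dcn, -1.25 for Lum and -0.77 for Bgn, and those of Aspn and Fmod turned from 0.29 and 0.24 to -0.90 and -0.82, with 0 members called.

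Whether the genotype difference depended on the region was tested as a contrast in the 12 libraries. Of 9 members 0 passed, and of 12321 genes 0 passed (0%), with 495 at an unadjusted p under 0.05. The metaphysis minus diaphysis difference in log2 fold change was 0.68 for Bgn with an interval of -0.90 to 2.26, and -0.01 for Dcn with an interval of -1.32 to 1.30 (limma, adjusted p = 0.910 and 0.999). Prelp had the largest value, 1.08, with an interval of -1.08 to 3.24. Without diaphysis WT replicate 1, 247 of 12284 genes passed (2.01%) and still 0 members, with the smallest member p at 0.0797 (Ogn, limma, adjusted) and Bgn at 1.38.

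A ratio of a pair of genes within a library is free of how that library was scaled. These ratios were examined after the levels had been seen and are given as a description. Bgn over Dcn was 3.54, 3.91 and 5.37 in metaphysis cKO, against 1.70, 1.86 and 1.83 in metaphysis WT. In the diaphysis it was 1.89, 2.76 and 2.31 in cKO, against 1.37, 1.74 and 1.64 in WT. Every cKO library of a region thus had more Bgn per Dcn than any WT library of it, including diaphysis WT replicate 1, where both genes were low. The mean ratio was 4.27 ± 0.97 in metaphysis cKO and 1.80 ± 0.08 in metaphysis WT, and 2.32 ± 0.43 in diaphysis cKO and 1.58 ± 0.19 in diaphysis WT (SD, n = 3 each). On the log2 scale the cKO minus WT difference stayed between 1.05 and 1.35 in the metaphysis and between 0.41 and 0.68 in the diaphysis when any library was left out.

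The same held with Fmod in the place of Bgn and with Lum in the place of Dcn. Fmod over Lum was 0.680, 0.987 and 0.857 in metaphysis cKO, against 0.485, 0.592 and 0.269 in metaphysis WT. In the diaphysis Fmod over Lum was 0.453, 0.524 and 0.345 in cKO, against 0.171, 0.337 and 0.309 in WT. The diaphysis groups were close, the lowest cKO library standing just above the highest WT library. Bgn over Lum was as close there, at 2.01 in the lowest cKO library and 1.98 in the highest WT library. For Fmod over Dcn these values were 0.340 and 0.332. Of the 36 pairs among the 9 genes, 17 had ratios that did not overlap in the metaphysis, where 37.1% of all pairs of tested genes had the same. In the diaphysis it was 11 of 36, against 3.98% of all pairs. In both regions and in the same direction it was 4 of 36, against 1.49% of all pairs. These 4 were Bgn over Dcn, Bgn over Lum, Fmod over Dcn and Fmod over Lum, all higher in cKO, and they share their genes. All 36 ratios reuse the same 9 genes, so neither the 4 nor the 36 are separate observations. The 9 genes were also all lowest in diaphysis WT replicate 1, so pairs of any genes are not a like background for them.

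**Figure D3:**
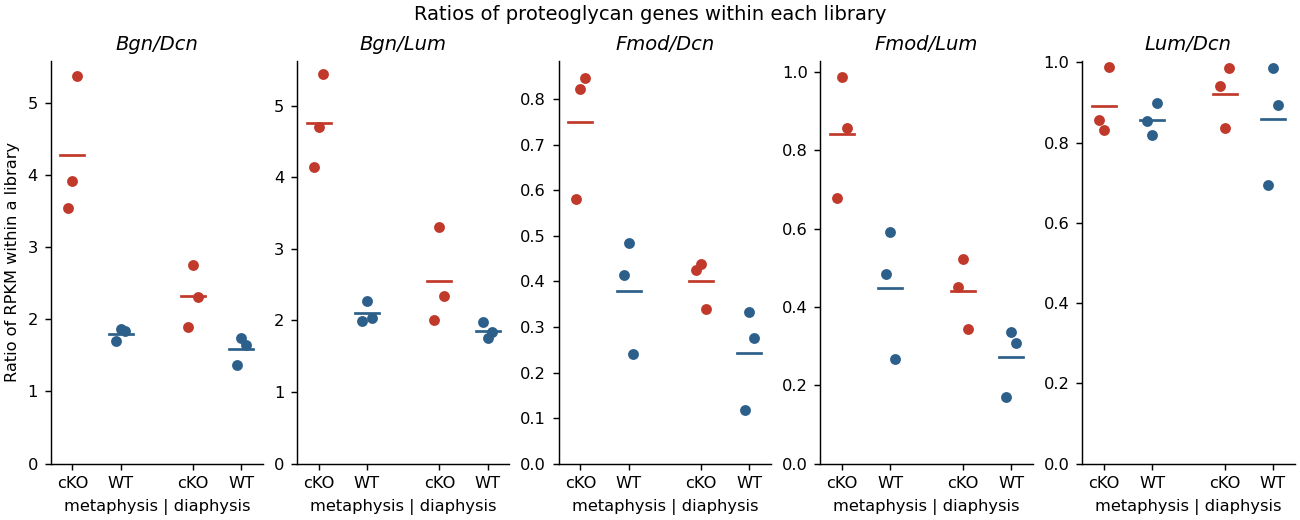
Ratios of RPKM within a library for 5 gene pairs, metaphysis left and diaphysis right in each panel, with cKO (red) left of WT (blue). Points are libraries and lines are means of 3. The cKO points lie above the WT points in both regions for Bgn or Fmod over Dcn or Lum, and the groups overlap for Lum over Dcn.

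Lum over Dcn, in contrast, did not separate the genotypes. It was 0.855, 0.831 and 0.988 in metaphysis cKO and 0.853, 0.818 and 0.898 in metaphysis WT, and 0.941, 0.835 and 0.985 in diaphysis cKO and 0.694, 0.986 and 0.892 in diaphysis WT. The groups overlapped in both regions, and diaphysis WT replicate 1 gave the lowest value. The makeup of the family's summed RPKM shifted accordingly in the metaphysis. Bgn made up 57.6% ± 3.5 of it in cKO and 41.1% ± 1.8 in WT, Dcn 13.8% ± 2.1 in cKO and 22.9% ± 1.1 in WT, and Lum 12.2% ± 1.1 in cKO and 19.6% ± 1.8 in WT (SD, n = 3 each). In the diaphysis Bgn made up 43.3% ± 4.8 in cKO and 38.0% ± 1.3 in WT, and Dcn 18.8% ± 1.5 in cKO and 24.4% ± 4.0 in WT.

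The profile of each gene over the 12 libraries, centred on the mean of its region, was set against that of 12321 genes by the mean absolute difference on the log2 scale. These distances describe the same libraries, share depth and composition, and carry no p. Dcn and Lum, neighbours on chromosome 10, were the nearest gene to each other among all genes, at 0.108, where the median distance of a gene from Dcn was 0.489. Nbl1, which encodes a secreted BMP antagonist, came next for both. Ogn and Omd, neighbours on chromosome 13, were 0.138 apart, and both had Smoc2, a matricellular calcium-binding protein, as their nearest gene. Kera stood nearest to Tnmd (0.199), the tendon gene tenomodulin, and its own neighbours on the chromosome were farther away, with Dcn in rank 14. Aspn stood nearest to Thbs2 (0.149), Ptn and Postn, which encode thrombospondin 2, pleiotrophin and periostin. Fmod stood nearest to Thbs3 (0.104) and then to Fam180a and 3632451O06Rik. For Bgn the nearest were 2610034B18Rik (0.094), Clip3 and C1qtnf1, and its nearest family member, Ogn, had rank 273. Prelp stood nearest to 1500015O10Rik (0.222), Cntfr and Ndufa4l2. Over the 36 pairs within the family the distance ran from 0.108 to 0.664, with a median of 0.400.

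**Figure D4:**
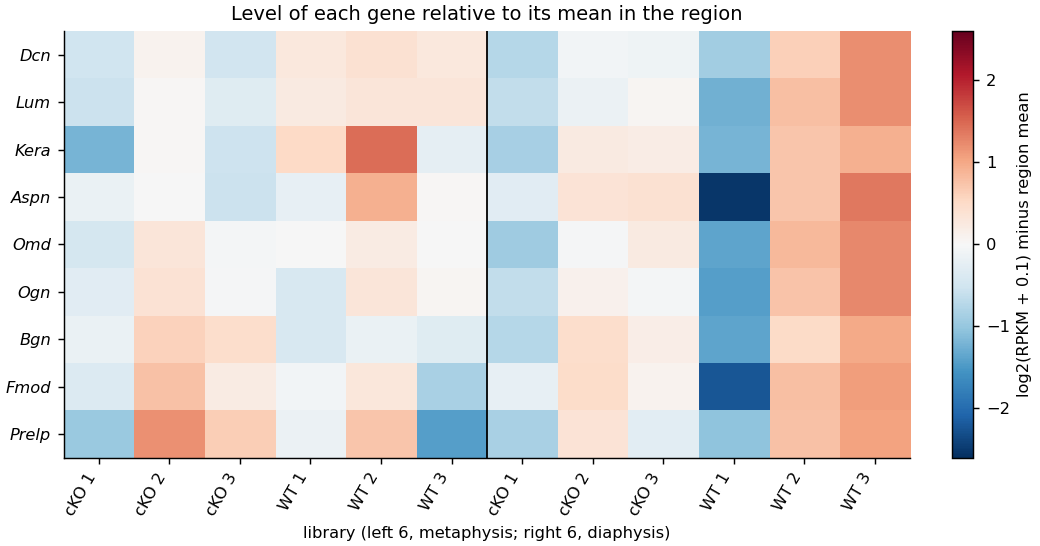
log2(RPKM + 0.1) of each gene minus its mean over the 6 libraries of the region, as colour, for 9 genes (rows) and 12 libraries (columns, cKO left of WT in each region). The Dcn and Lum rows are alike, and diaphysis WT replicate 1 is low in all rows. Bgn, Fmod and Prelp are above their region mean in metaphysis cKO replicates 2 and 3 and below it in cKO replicate 1. Fmod and Prelp are also above it in metaphysis WT replicate 2.

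The ligand of most of these proteins is fibrillar collagen, so each gene was also set against the summed RPKM of Col1a1 and Col1a2 in its library. In log2 units Dcn stood at -7.23, -6.48 and -7.22 in metaphysis cKO, against -6.03, -5.67 and -6.23 in metaphysis WT. In the diaphysis it stood at -6.37, -6.10 and -5.97 in cKO, against -5.24, -5.80 and -5.73 in WT. Lum averaged -7.15 ± 0.37 in metaphysis cKO and -6.20 ± 0.22 in metaphysis WT, and -6.27 ± 0.25 in diaphysis cKO and -5.83 ± 0.06 in diaphysis WT (SD, n = 3 each). Relative to type I collagen, Dcn and Lum were therefore lower in cKO without overlap in both regions. Aspn was so in the metaphysis alone and Ogn in the diaphysis alone, and Bgn, Fmod, Prelp, Kera and Omd overlapped in both. A lower ratio without overlap was found for 50.1% of all genes in the metaphysis, for 0.231% in the diaphysis and for 0.106% in both (13 of 12321 genes, among them Dlx3 itself). A higher ratio without overlap was found for 0 of 9 members in either region, against 4.12% of genes in the metaphysis and 1.87% in the diaphysis. Type I collagen, the denominator, was low in diaphysis WT replicate 1, and its part in the diaphysis shares was not tested. Col1a1 measured 9310 to 10462 RPKM in metaphysis cKO and 6384 to 8543 RPKM in metaphysis WT, and did not pass (log2 fold change 0.45, limma, adjusted p = 0.107).

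**Figure D5:**
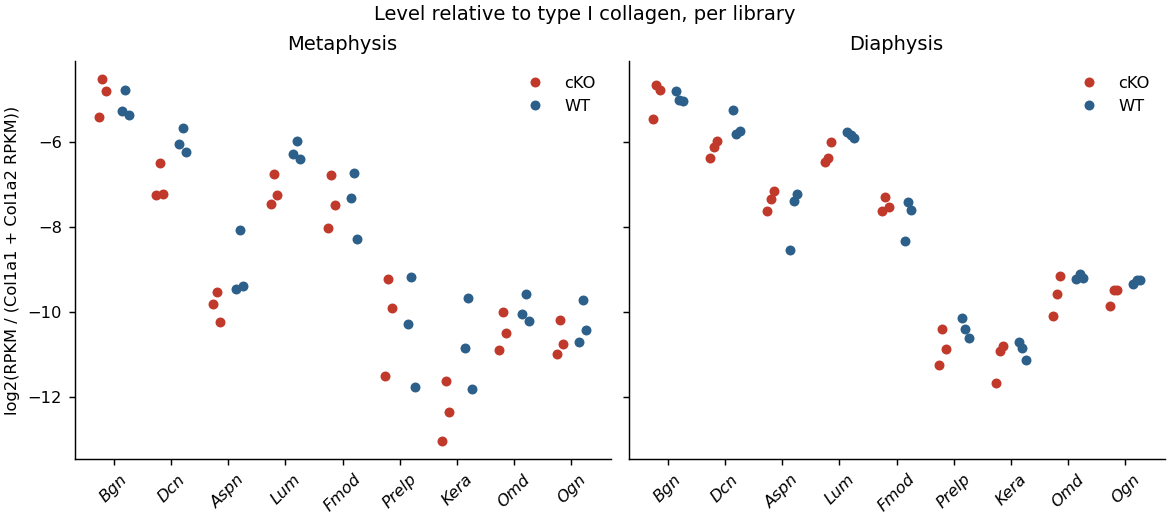
log2 of RPKM over the summed RPKM of Col1a1 and Col1a2 in the same library for the 9 genes, metaphysis left and diaphysis right, with cKO (red) left of WT (blue). Points are libraries. Dcn and Lum are lower in cKO without overlap in both panels.

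Other genes of the leucine-rich proteoglycan family were few in bone but included calls. Of 9 such genes 6 were tested in the metaphysis, where 2 rose and 0 fell, against 7.51% of all genes that rose and 3.89% that fell. Podnl1 (podocan-like) measured 24.3, 24.0 and 21.9 RPKM in metaphysis cKO, against 10.5, 8.16 and 13.2 RPKM in metaphysis WT (log2 fold change 1.16 ± 0.17 SE, limma, adjusted p = 0.0129). Tsku, which encodes the secreted BMP and Wnt modulator tsukushi, measured 15.5, 15.8 and 15.9 RPKM in cKO, against 9.18, 8.34 and 10.6 RPKM in WT (0.75 ± 0.11 SE, adjusted p = 0.0125). Both rises missed the threshold without WT replicate 1 or without cKO replicate 3. The cartilage genes Chad, Chadl and Epyc had log2 fold changes of 1.02, 1.49 and 0.88 and did not pass (limma, adjusted p = 0.277, 0.0772 and 0.197), although Chadl and Epyc passed without cKO replicate 1. Chad measured 53.4, 165 and 92.6 RPKM in metaphysis cKO and 59.9, 81.6 and 19.8 RPKM in metaphysis WT, so its groups overlapped, and it lies 551 kb from Dlx3 on chromosome 11. Ecm2, beside Aspn, stood at -0.02, and Optc, Podn and Nyx were not tested there, since they did not reach 1 RPKM in at least 3 libraries. In the diaphysis 0 of 5 tested passed.

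Genes that act on these proteoglycans rose more often than they fell in the metaphysis, as did all called genes (949 higher and 492 lower in cKO). The gene lists here, above and below were chosen with earlier results of these data known. Their counts beside the share of all genes are therefore a description only. Among 8 tested proteases known to cut the proteoglycans, 6 rose and 0 fell, where 7.51% of all genes rose and 3.89% fell. Mmp13, the collagenase that cuts fibromodulin, averaged 602 ± 116 RPKM in cKO and 299 ± 68.2 RPKM in WT (SD, n = 3 each; log2 fold change 1.01, limma, adjusted p = 0.0232). Mmp9, an osteoclast gelatinase, had a log2 fold change of 0.94 and the aggrecanase Adamts4 one of 0.91 (adjusted p = 0.0238 and 0.0325). Bmp1, the enzyme that removes the propeptide of biglycan, and Mmp14, which cuts lumican, were picked out after their values were seen, with 0.81 and 0.88 (adjusted p = 0.0171 and 0.0115). The list median was 0.85, against -0.04 over all genes.

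Of 12 tested ligands and receptors that bind the proteins, 5 rose and 0 fell, where 7.51% of all genes rose and 3.89% fell. Lrp1, an endocytic receptor for decorin, averaged 24.8 ± 1.54 RPKM in cKO and 16.1 ± 0.17 RPKM in WT (SD, n = 3 each; log2 fold change 0.61, limma, adjusted p = 0.0117). Egfr, another decorin receptor, stood at 0.73, and Wisp1, whose product binds decorin and biglycan, at 0.68 (adjusted p = 0.0281 and 0.0313). Of 14 fibrillar collagens and fibril partners, set beside 7.51% and 3.89% of all genes, 2 rose and 0 fell. The 2 were Fn1 (fibronectin, 0.55) and Col5a1 (type V collagen, 0.49), with adjusted p = 0.0213 and 0.0283.

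Enzymes that build the sugar chains moved in part. Of 21 tested enzymes of the linker and of chondroitin or dermatan sulfate, 5 rose and 1 fell. Of all genes 7.51% rose and 3.89% fell. The 1 enzyme of that list that fell was Chst3, the chondroitin 6-O-sulfotransferase, at 9.68 ± 0.98 RPKM in cKO and 17.0 ± 0.91 RPKM in WT (SD, n = 3 each; log2 fold change -0.81, limma, adjusted p = 0.0115). Chst11, a chondroitin 4-O-sulfotransferase, rose to 18.9 ± 2.95 RPKM in cKO, against 11.5 ± 0.32 RPKM in WT (SD, n = 3 each; log2 fold change 0.71, adjusted p = 0.0185). Chpf, the chondroitin polymerizing factor, had a log2 fold change of 0.72 (adjusted p = 0.0251). Among 8 tested enzymes of keratan sulfate and tyrosine sulfation, set beside 7.51% and 3.89% of all genes, 3 rose and 0 fell. They were the N-acetylglucosamine 6-O-sulfotransferases Chst5 (1.48) and Chst2 (0.67) and the tyrosylprotein sulfotransferase Tpst2 (0.67), with adjusted p = 0.0176, 0.0219 and 0.0233. In the diaphysis 0 genes of these 5 lists passed.

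Each of the 19 called genes named here other than Dlx3 missed the threshold without metaphysis cKO replicate 3, where 105 of 12515 genes passed. Leaving out another cKO library (replicate 1 or 2) lost 4 or 2 of these 19 calls, and leaving out a WT library lost 16 (replicate 1), 12 (replicate 2) or 4 (replicate 3). All kept their direction. Markers of several cell types moved with the metaphysis genotype, where 7.51% of all genes were called higher and 3.89% lower in cKO. Chondrocyte markers summed to 1555 to 2501 RPKM in cKO and 882 to 1142 RPKM in WT, with 9 of 14 tested higher and 0 lower. Osteoblast markers summed to 23384 to 25108 RPKM in cKO and 15089 to 19440 RPKM in WT, with 8 of 12 higher and 0 lower. Osteoclast markers, which include Mmp9, summed to 4108 to 4633 RPKM in cKO and 2196 to 2769 RPKM in WT, with 6 of 8 higher and 0 lower. Tendon, periosteum and fibroblast markers overlapped, at 306 to 374 RPKM in cKO and 247 to 484 RPKM in WT, and 1 of 14 rose (Scx, log2 fold change 0.70, limma, adjusted p = 0.0456) and 0 fell. The Scx call was lost in 10 of 13 alternatives, with adjusted p from 0.0428 to 0.558. Skeletal muscle markers summed to 3531 to 13593 RPKM in cKO and 8024 to 11959 RPKM in WT, with 0 of 14 higher and 1 lower. None of the markers present in the tables was at 0 in any library of the metaphysis for these 5 lists. Of the other lists, B lymphoid had 8 of 12 lower, erythroid 5 of 13 and proliferation 4 of 12, with 0 higher. Megakaryocyte and platelet markers had 2 of 6 lower and 0 higher. Endothelial markers had 6 of 10 higher and 0 lower. Osteocyte markers had 2 of 8 higher and 1 lower, and monocyte and macrophage markers 2 of 9 higher and 1 lower. Neutrophil, adipocyte and RNA quality lists had 0 called. The part of all these markers in the values of the proteoglycan genes was not tested.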

How the data were processed

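Messenger RNA was read from 12 libraries in 4 groups taken from the labels (TruSeq kit, which does not mark strand, per the labels' protocols). The authors deposited 1 table per region with RPKM per RefSeq transcript, per the file headers. Partek 6.6, Bowtie 0.12.7.0, TopHat 1.3.2, CASAVA 1.8.2 and the build mm9 are listed in the submitters' processing notes. The annotation and the treatment of shared reads were not given in sources used here. RPKM is relative to a library's total, so a larger globin share lowers the other genes.

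Transcripts were summed per symbol. Genes with at least 1 RPKM in 3 of 6 libraries of a region were kept, and all 9 members passed in both regions. Each region was fitted alone by limma 3.58.1 (R 4.3.3) on log2(RPKM + 0.1) with a mean-variance trend, 2-sided, with Benjamini-Hochberg adjustment over all genes and a threshold of 0.05. That scale understates the fold change of low genes. The difference between regions was a contrast over 12 libraries. For Dlx3 an exact permutation test, 2-sided, was added (p = 0.1 in each region, the smallest that 3 against 3 allow). Depth came from whole-read steps in low values. From 73.5% to 78.2% of these lay within 0.1 of a whole read, too few to rebuild counts, so no count test was run. Replicate numbers are in record order and name a library only.

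The members and the gene lists were chosen with earlier results of these data known. Named genes were all members, Dlx3, all other family genes, the 3 called genes of each other list with the largest metaphysis change, and the 3 genes nearest each member. The text names genes of the lists of proteoglycan biology only, and gives marker lists as counts, apart from Scx and Col2a1. Alternatives were another pseudocount, no filter, rescaling without globin, quantile normalization, the highest transcript per symbol, no trend, 1 fit of all libraries and leaving out each library. The fits were tested on simulated data.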

Additional observations from a re-analysis of the deposited data

How the results depend on the processing

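No paired analysis was possible because the labels name no pairs, and the numbers that begin the library titles all differ. The replicate numbers used here only name a library. The count of members called in the metaphysis, 0 of 9, became 1 with a pseudocount of 1, after rescaling without globin, after quantile normalization and with the highest transcript per symbol, and ranged from 0 to 2 when a library was left out. The genes called in the metaphysis numbered 789 without the filter, 7 when all 12 libraries were fitted together, which adds the spread of the diaphysis libraries, and 105 to 1418 with a library left out. The count was 105 when cKO replicate 3 was left out, and 188, 243 or 672 when a WT library (replicates 1, 2 and 3 in turn) was left out. In that joint fit Dlx3 itself missed the threshold in the metaphysis (adjusted p = 0.210), and of 19 other called genes named above 18 were tested and 0 passed. Without the filter 9 of the 19 missed it. In the diaphysis 0 genes and 0 members passed under every alternative run. The difference between regions gave 2 genes without the filter and 0 to 247 with a library left out, the 247 without diaphysis WT replicate 1, and 0 members under every alternative run. For Dcn that difference changed sign from -0.01 to 0.026 after quantile normalization and to 0.11 with the highest transcript. The cause of these changes was not tested.

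With a library left out, the direction of small differences could turn. Log2 fold changes then ranged from -0.32 to 0.067 for Omd, -0.17 to 0.19 for Ogn and -0.39 to 0.25 for Ecm2 in the metaphysis. In the diaphysis they ranged from -0.77 to 0.41 for Bgn, -0.90 to 1.05 for Aspn, -0.82 to 0.84 for Fmod, -0.97 to 0.10 for Kera, -1.28 to 0.025 for Omd and -1.20 to 0.14 for Ogn. The differences between regions ranged from -0.46 to 0.60 for Dcn, -1.55 to 0.39 for Aspn, -0.44 to 1.22 for Fmod, -0.55 to 0.68 for Lum, -0.15 to 1.16 for Omd and -0.12 to 1.23 for Ogn. Dcn (-0.82 to -0.51), Lum (-0.72 to -0.43), Kera (-1.55 to -0.71) and Aspn (-0.73 to -0.16) stayed below 0 in the metaphysis when a library was left out, and Bgn (0.46 to 0.84) stayed above 0. Fmod ranged from 0.08 to 0.68 and Prelp from 0.0064 to 1.20, both lowest when WT replicate 3 was left out. On a 2 kb transcript 1 RPKM corresponds to 36.5 reads in the shallowest library and 106 reads in the deepest.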
